A study of Mus musculus with 98 samples.

Results

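Glucocorticoid-responsive genes were followed through all 6 count tables of a study of mouse hippocampus and cultured hippocampal neurons. The 9 genes were Plin4, Sgk1, Fkbp5, Tsc22d3, Ddit4, Arrdc2, Zbtb16, Cdkn1a and Errfi1, out of 25239 named genes in the smallest table and 55367 in the largest. They were chosen by name, and Plin4 was selected on its CPM (read count scaled to library size) in PS19 mice with the empty vector, which was higher at 6 months than at 1 month. That contrast is therefore given below as a description, with no test for any of the 9 genes. All 9 had counts in every table. Plin4 did not pass the expression filter in the fit of day 9 neurons or in the mice of 10 months, so 8 genes were tested there and 9 elsewhere.

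Glucocorticoids such as corticosterone, the main stress hormone of mice, cross the cell membrane and bind the glucocorticoid receptor, encoded by Nr3c1. The receptor waits in the cytoplasm in a complex with HSP90 and co-chaperones, moves into the nucleus when it binds hormone, and raises transcription of genes that carry glucocorticoid response elements. In the hippocampus, neurons and glia both express it. Fkbp5 encodes a co-chaperone that lowers the receptor's affinity for hormone and so closes a feedback loop, Tsc22d3 encodes the leucine zipper protein GILZ, Sgk1 a kinase that regulates ion channels and transporters, and Zbtb16 the zinc finger transcription factor PLZF. Ddit4 encodes an inhibitor of mTORC1 signalling and Errfi1 a feedback inhibitor of the EGF receptor. Cdkn1a encodes p21, an inhibitor of cyclin-dependent kinases that is also a target of p53. Arrdc2 encodes an arrestin-domain protein, and Plin4 a coat protein of lipid droplets. Many of these genes also answer to other signals, among them cell stress, growth factors and neuronal activity.

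The series held 98 libraries in 22 groups, and compared raised with unchanged Acss2, the gene of an acetyl-CoA synthetase. Primary hippocampal neurons from CD1 mouse embryos received an AAV PhP.eB virus on day 5, either one carrying Acss2 (upACSS2) or an empty vector, and on day 7 either hAD-tau, tau material from human Alzheimer's disease, or PBS. They were collected on day 9 or on day 21, and a further set of day 21 cultures is labelled as stimulated, with 3 libraries in each of these 12 groups. A separate day 21 culture received no virus, and 4 of its libraries had hAD-tau and 3 PBS. The neurons were kept in medium with B27 supplement, which in its standard form contains corticosterone. The version used is not given in the sources used here, and no hormone level was among the data. Aged C57BL6 males of 22 to 23 months (12 with upACSS2, 12 with vector) had carried the virus for 2 months and gave whole hippocampus 30 min after remote recall. C57BL6 males of 10 months (6 with upACSS2, 5 with vector) had carried it for 2 weeks and gave dorsal hippocampus 30 min after fear conditioning. PS19 males, whose transgene expresses mutant human tau from the Prnp promoter, were injected behind the eye at 2.5 months and studied 1 or 6 months later, at 3.5 or at 8.5 to 9 months of age, 30 min after recall, with 5 mice per virus and time. All mouse groups had been through a fear conditioning test, so no group shows the hippocampus at rest.

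Groups follow the sample titles, and the treatment entry contradicts the title in several groups. PS19 mice with upACSS2 at 1 month are labelled whole hippocampus and the other PS19 groups dorsal, so at 1 month the virus cannot be told apart from the tissue taken. Acss2 checked the titles. It reached 1488 to 5462 CPM (TMM-scaled) in neurons titled upACSS2, against 40.12 to 57.86 CPM with vector. In mice the difference was far smaller. Aged mice had 46.67 to 61.47 CPM with upACSS2 and 39.96 to 53.71 CPM with vector. Mice of 10 months had 49.9 to 59.26 and 42.29 to 48.85 CPM. No gene was called between the viruses in aged mice, at 10 months or in PS19 mice at either time (0% each), so Acss2 itself was not called. In the aged mice 4 of 12 libraries labelled upACSS2 (replicates 2, 5, 6 and 7) were not above the highest vector library of 53.71 CPM. In PS19 mice the library labelled upACSS2 replicate 4 at 1 month, and replicates 3 and 4 at 6 months, lay within the vector range (highest 66.34 CPM). Leaving out these libraries changed no count of the 9 genes called, which was 0 in each of the 5 tested comparisons they enter. Total counts ran from 5075099 to 39985460 per library, lowest in the mice of 10 months. None of 8 neuron and 7 astrocyte markers was at 0 in any group, so the cultures also held astrocyte RNA. Libraries that stood apart are named beside the genes they touch. In bulk RNA, fewer cells of a type and less RNA per cell cannot be told apart.

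The DNA just before the start sites is shown for 4 genes, because the tests below turn on Fkbp5, Plin4, Sgk1 and Errfi1 and because the 4 windows hold different motifs. They are RefSeq windows of the 250 bases before an annotated start, in GRCm38.p6, read 5′ to 3′ on the gene's strand, with capitals marking matches to the motifs searched. The windows are Sgk1 at chr10:21993640-21993889 (plus strand), Fkbp5 at chr17:28486150-28486399 (minus strand), Errfi1 at chr4:150854820-150855069 (plus strand) and Plin4 at chr17:56109783-56110032 (minus strand).
Sgk1: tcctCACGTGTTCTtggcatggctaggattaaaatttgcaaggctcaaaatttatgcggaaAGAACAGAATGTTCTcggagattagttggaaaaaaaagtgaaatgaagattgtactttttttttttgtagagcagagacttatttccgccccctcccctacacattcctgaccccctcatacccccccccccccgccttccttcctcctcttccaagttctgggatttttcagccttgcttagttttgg
Fkbp5: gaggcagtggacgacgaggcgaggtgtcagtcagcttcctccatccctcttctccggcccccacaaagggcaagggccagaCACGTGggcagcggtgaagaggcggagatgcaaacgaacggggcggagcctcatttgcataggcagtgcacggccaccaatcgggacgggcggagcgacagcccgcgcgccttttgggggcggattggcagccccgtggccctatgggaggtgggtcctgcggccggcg
Errfi1: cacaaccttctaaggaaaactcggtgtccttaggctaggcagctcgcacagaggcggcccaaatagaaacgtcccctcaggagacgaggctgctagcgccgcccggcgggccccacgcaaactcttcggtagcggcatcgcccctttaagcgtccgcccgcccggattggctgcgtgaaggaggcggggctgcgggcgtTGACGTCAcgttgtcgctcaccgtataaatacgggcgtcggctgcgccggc
Plin4: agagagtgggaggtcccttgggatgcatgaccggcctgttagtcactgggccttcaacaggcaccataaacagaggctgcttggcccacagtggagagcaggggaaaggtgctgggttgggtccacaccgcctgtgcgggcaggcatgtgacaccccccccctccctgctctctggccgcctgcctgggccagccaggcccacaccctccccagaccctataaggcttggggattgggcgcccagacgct

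Motifs were searched on both strands in 17 windows of 8 of the genes (Zbtb16 had none in the table) and in all 32851 windows of this length. The palindrome of a glucocorticoid response element, GNACA and TGTNC with 3 free bases between them, lay in the Sgk1 window shown, from base -188 to base -176 before the start, and in no other window of the 8 genes. It lay in 0.387% of all windows. Its single arm AGAACA matched in 3 windows of Sgk1 and 1 of Tsc22d3, and in 16.1% of all windows. The E-box CACGTG, which clock factors and others bind, was in the Fkbp5 window at -169 to -164 and in the Sgk1 window at -246 to -241, where it overlaps an AGAACA match at -242 to -237, and in 6.02% of all windows. Errfi1 held a full CRE, TGACGTCA, at -51 to -44, the element bound by CREB, present in 1.55% of all windows. The Plin4 window held none of the 5 motifs, and the forkhead motif GTAAACA was in none of the 17 windows, against 3.17% of all. These are matches of letters in short windows, and distal enhancers, where many glucocorticoid response elements lie, were not examined.

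In GRCm38 the genes lie at chr17:56100591-56109803 for Plin4, chr10:21882184-21999903 for Sgk1, chr17:28399094-28517527 for Fkbp5, chrX:140539528-140600659 for Tsc22d3 and chr10:59949669-59951834 for Ddit4. Arrdc2 lies at chr8:70835129-70839720, Zbtb16 at chr9:48654297-48836222, Cdkn1a at chr17:29090976-29100727 and Errfi1 at chr4:150853919-150868892. Counts refer to all exons of a gene. Hdgfl2 on the opposite strand shares 17 of the 5777 exon bases of Plin4 (0.294%), and AC167363.2 shares 273 of the 3553 exon bases of Cdkn1a (7.68%). Since the strand setting of the counting is not given in the sources used here, reads from these stretches cannot be told apart. The Fkbp5 locus also overlaps AC154912.5 and AC154912.3 on its own strand and AC154912.1 and Gm22146 on the other. The exon bases they share with Fkbp5 were not measured.

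Per kilobase of exon, the genes differed widely in level. In aged vector mice (n = 12) Ddit4 was highest at 29.7 ± 5.79 CPM per kb (SD). Sgk1 (12.95 ± 3.13), Tsc22d3 (12.2 ± 1.73) and Errfi1 (11.7 ± 1.21 CPM per kb) followed and did not differ from each other beyond their spread. Zbtb16 stood at 8.82 ± 0.987, Fkbp5 at 6.36 ± 1.00, Arrdc2 at 2.46 ± 0.535, Cdkn1a at 1.74 ± 0.42 and Plin4 last at 0.339 ± 0.079 CPM per kb. Day 9 neurons with vector in PBS (n = 3) kept Ddit4 first, at 81.6 CPM per kb, but had Cdkn1a second at 13.7 CPM per kb and Plin4 at 0.0175 CPM per kb. Cultures and mice come from separate tables, so these levels are set side by side with no test.

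On day 9, 2 days after tau or PBS, the 8 tested genes varied little within groups (coefficient of variation 0.848% to 14.3%), while Plin4, at 1 to 5 reads, varied by 44.8% to 69.1%. Cdkn1a was the 1 of 8 tested genes called at an adjusted p under 0.05 (edgeR quasi-likelihood F test, Benjamini-Hochberg over all genes) between upACSS2 and vector in PBS, where 10.2% of all genes were called. Cdkn1a was 40.1, 44.6 and 41.3 CPM with upACSS2 and 47.9, 49.8 and 48.7 CPM with vector, and the groups did not overlap. The log2 difference was -0.22 ± 0.06 (SE, adjusted p 0.0159). The call was lost without upACSS2 replicate 1 or 3 or without vector replicate 2 (adjusted p 0.0181 to 0.082 over the libraries left out), and with all 24 unstimulated libraries in the fit (adjusted p 0.979, from 0.00531 over the other alternatives). In tau, Cdkn1a differed by -0.16 between the viruses (adjusted p 0.22).

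Ddit4, the mTORC1 inhibitor, was close to the threshold at day 9. It read 118, 130 and 130 CPM with upACSS2 in PBS and 145, 142 and 143 CPM with vector in PBS, a log2 difference of -0.19 (adjusted p 0.0626). With tau it read 139, 165 and 130 CPM with upACSS2 and 124, 131 and 141 CPM with vector, which overlap. The test of the difference between these differences gave 0.31 ± 0.09 (adjusted p 0.0896, edgeR). DESeq2 called both, at 0.0495 and 0.0407, and over the alternatives the adjusted p ran from 0.00151 to 0.981 and from 0.00029 to 1. Tsc22d3 read 15.2, 16.1 and 15.5 CPM with upACSS2 in PBS against 17.4, 18 and 19.4 CPM with vector, groups that do not overlap, with a log2 difference of -0.23 (adjusted p 0.0722). Fkbp5 ran from 29.9 to 35.5 CPM over the 12 day 9 libraries, Sgk1 from 34.1 to 41.9 CPM and Errfi1 from 24 to 29.9 CPM.

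None of the 8 genes was called on day 9 between upACSS2 and vector in tau (0.692% of all genes), between tau and PBS with vector (4.28%), between tau and PBS with upACSS2 (0.349%) or in the interaction of virus and tau (0.663%). At an unadjusted p under 0.05 there were 2, 0, 1 and 1 of them in that order. Over all genes 12.6%, 20.6%, 9.05% and 17.2% had such a p. DESeq2 called 0, 0, 0 and 1 of them, and 117, 607, 81 and 319 genes in all. Of the 20 other known glucocorticoid targets listed, 17 were tested, and none passed between upACSS2 and vector in PBS. Fam107a passed in the other virus comparison, higher by 0.38 with upACSS2 in tau (adjusted p 0.0312), and Fam107a and Gpd1 were lower in tau with vector, at -0.33 and -0.42 (0.0249 and 0.0437). Among 8 genes of the receptor and its chaperones, the mineralocorticoid receptor gene Nr3c2 was called higher by 0.16 and Hsp90aa1, an HSP90 gene, lower by a log2 difference of -0.14.

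By day 21, stimulated cultures showed a fall of Fkbp5 with tau in the vector group. Fkbp5 read 70.5, 60.3 and 66.2 CPM in PBS and 44.8, 41.1 and 33.5 CPM in tau, so every tau library lay below every PBS library. The means were 65.7 ± 5.13 and 39.8 ± 5.75 CPM (SD, n = 3 each), and the log2 difference was -0.72 with an SE of 0.14 (adjusted p 0.0300, edgeR). It was the 1 of 9 genes called, with 3.02% of all genes called. The call was lost without vector PBS replicate 1 or 3 or vector tau replicate 1 or 3 (adjusted p 0.0188 to 0.151), and with only the groups compared in the fit (0.0938, from 0.000213 over the other alternatives).

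With upACSS2 in the stimulated cultures, Fkbp5 did not show this difference. It read 52.6, 37.2 and 52.8 CPM in PBS and 59.3, 53.4 and 53.7 CPM in tau, a log2 difference of 0.22 (adjusted p 0.477). The test of the interaction of virus and tau gave 0.95 ± 0.20 and missed the threshold in edgeR (adjusted p 0.233), while DESeq2 (0.00641) and the fit with the replicate number as a block (0.0386) called it. So whether the fall differs between the viruses depends on the model. In tau alone, upACSS2 against vector gave 0.48 for Fkbp5 (adjusted p 0.0993, DESeq2 0.0319) and 0.40 for Tsc22d3 (adjusted p 0.0838, DESeq2 0.0202). Tsc22d3 read 29.2, 30.3 and 28.2 CPM with upACSS2 and 22.3, 24.2 and 20.1 CPM with vector there, groups that do not overlap.

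Astrocyte markers moved with Fkbp5 in the same stimulated libraries. Their summed level was 9067, 5804 and 9014 CPM with vector in PBS and 4248, 4397 and 2835 CPM with vector in tau. All 7 were lower in tau, 2 of them past the threshold, with a median log2 difference of -0.75. With upACSS2 the sums were 9078, 5115 and 8589 CPM in PBS and 7546, 7319 and 6767 CPM in tau. The part of this shift in the Fkbp5 result was not tested. Of the 20 other glucocorticoid targets none was called with vector, 15 of them being lower in tau, with a median of -0.34.

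Sgk1 was the other gene near a call in stimulated cultures. It read 135, 133 and 154 CPM with upACSS2 in tau and 102, 73.1 and 104 CPM with upACSS2 in PBS, and the groups did not overlap. The log2 difference was 0.60 ± 0.15 (adjusted p 0.108, edgeR), with calls by DESeq2 (0.0131) and by the fit with a replicate block (0.0156). No gene of the 9 was called between upACSS2 and vector in PBS (0.208% of all genes), between upACSS2 and vector in tau (0.937%), between tau and PBS with upACSS2 (0.208%) or in the interaction (0%). In that order 2, 3, 3 and 1 of them had an unadjusted p under 0.05. Over all genes 15.9%, 20.4%, 14.3% and 14.3% had such a p. DESeq2 called 0, 2, 1 and 1 of them, and 422, 966, 453 and 128 genes in all.

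In unstimulated day 21 cultures none of the 9 genes was called between upACSS2 and vector in PBS (0.0137% of all genes) or in tau (0.0273%), between tau and PBS with vector (0%) or with upACSS2 (0%), or in the interaction (0%). At an unadjusted p under 0.05 there were 1, 2, 0, 1 and 1 of them, and DESeq2 called none. Over all genes 16.6%, 10.7%, 9.3%, 6.36% and 8.3% had such a p, and DESeq2 called 374, 126, 3, 11 and 3. The spread was wider than on day 9. Fkbp5 with vector in PBS read 66.1, 42.7 and 42.3 CPM, and Plin4 in the same 3 libraries read 0.589, 0.115 and 1.31 CPM. Replicate 3 of that group, with the highest Plin4, also had the highest summed astrocyte markers, 18440 CPM against 7220 and 4115 CPM. Whether that bears on Plin4 was not tested. Against this spread, Plin4 with upACSS2 in PBS (0.123, 0.259 and 0.15 CPM) differed by -1.96 on the log2 scale (adjusted p 0.237, and 0.0489 with all 24 unstimulated libraries in the fit). In tau Fkbp5 was higher with upACSS2 (66, 65 and 58.6 CPM) than with vector (43.6, 37.2 and 53.8 CPM) in every library, by 0.50 (adjusted p 0.348, and 0.0494 with all 24 libraries). Between tau and PBS, 17 of the 20 other glucocorticoid targets were lower with vector (median -0.35) and 20 of 20 higher with upACSS2 (median 0.42), none of them called. Astrocyte markers had the same signs, 7 of 7 lower (median -0.74) and 6 of 7 higher (median 0.32), and their part in these values was not tested.

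Stimulated and unstimulated cultures were deposited as separate tables, so their levels are set side by side with no test. Errfi1 stood out, with group means of 291 to 386 CPM when stimulated and 33.9 to 48.5 CPM when not, a ratio of 7.13 to 11.4 over the 4 groups. Sgk1 was 1.89 to 2.85 times as high. Plin4 ranged from 0.694 to 2.23, the highest ratio being for upACSS2 in PBS, where it had 3 to 6 reads per unstimulated library. The other 6 genes lay nearer to 1 than Sgk1 did, from 0.681 to 0.840 for Arrdc2, 0.872 to 1.30 for Tsc22d3, 0.874 to 1.30 for Fkbp5, 0.966 to 1.37 for Ddit4, 1.00 to 1.51 for Cdkn1a and 1.12 to 1.46 for Zbtb16. The range for Fkbp5 and Tsc22d3 did not reach that for Errfi1 or Sgk1.

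**Figure D1:**
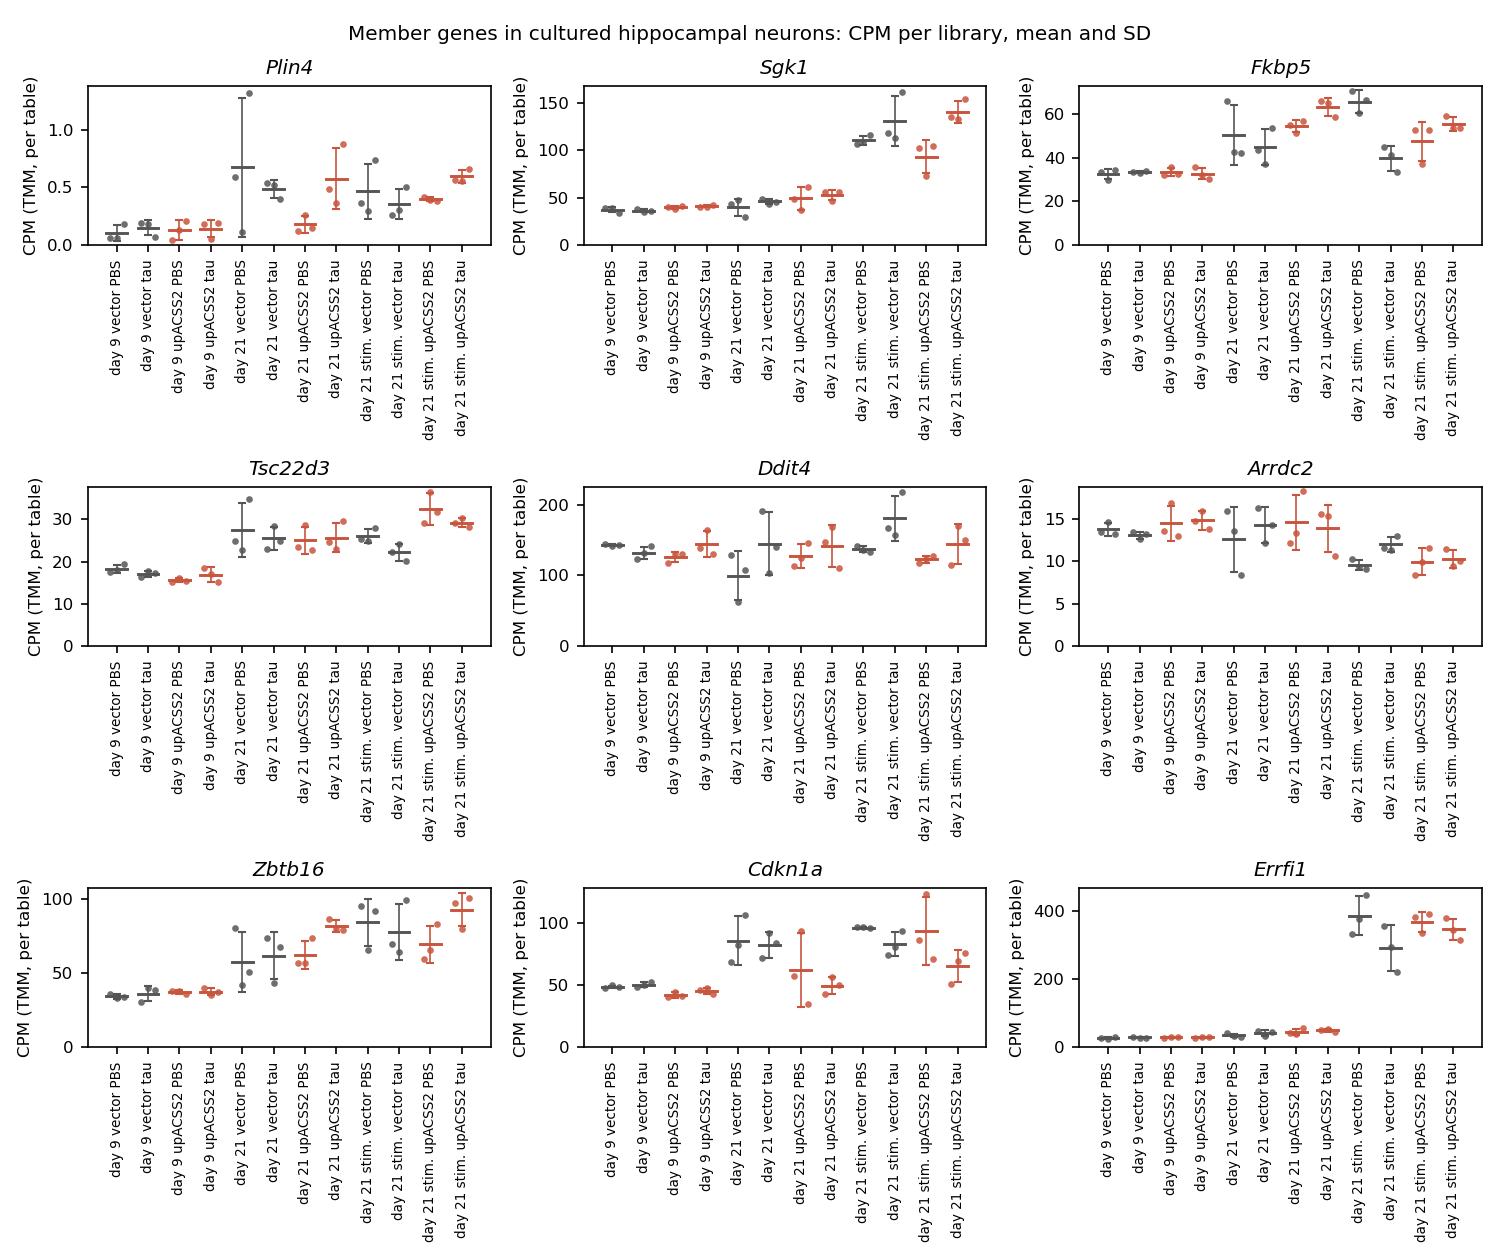
CPM of each of the 9 genes in the 12 groups of cultured neurons with virus (points, libraries; horizontal bars, mean; error bars, SD; n = 3 each; grey, vector; red, upACSS2). Errfi1 reaches 222 to 447 CPM in the stimulated libraries, and Fkbp5 with vector in stimulated tau (33.5 to 44.8 CPM) lies below its PBS group.

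Most calls of the 9 genes came with time in culture, with 7, 5, 5 and 6 genes in 4 comparisons. Over all genes 57.7%, 52.6%, 54.3% and 53.6% were called there. The 7 and the 6 include Plin4, which is described below without a test. From day 9 to day 21, Fkbp5, Tsc22d3, Zbtb16 and Errfi1 rose in all 4 comparisons of unstimulated groups, each with its own libraries. Fkbp5 rose most with upACSS2 in tau, from 35.5, 31.9 and 30.4 CPM to 66, 65 and 58.6 CPM. The means were 32.6 ± 2.62 and 63.2 ± 4.01 CPM (SD, n = 3 each), and the log2 difference was 0.95 with an SE of 0.14 (adjusted p 8.58e-06, edgeR). In the other 3 groups its log2 fold change was 0.63, 0.43 and 0.70. The rise of 0.43, with vector in tau, was lost without day 21 replicate 3 (adjusted p 0.11, and 0.00393 at the lowest over the libraries left out).

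Zbtb16 rose from 40.1, 35.0 and 37.3 CPM to 86.6, 79.8 and 78.9 CPM with upACSS2 in tau, a log2 fold change of 1.12 (adjusted p 4.99e-05), and by 0.74 to 0.77 in the other 3 groups. Tsc22d3 went from 18.5, 17 and 15.1 CPM to 24.6, 22.9 and 29.5 CPM in the same group, a rise of 0.61, against 0.57 to 0.68 elsewhere. Errfi1 rose by 0.79 there, and by 0.37 to 0.65 elsewhere. The lowest of these, 0.37 with vector in PBS, had an adjusted p of 0.039. It was lost without day 21 replicate 1 or 2 or day 9 replicate 1 or 2, at 0.0217 to 0.17, and with only the groups compared (0.0561).

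Cdkn1a rose with vector in PBS by 0.82 and in tau by 0.71. With upACSS2 in PBS its rise of 0.57 (adjusted p 0.0350) rested largely on 1 library of 94.2 CPM, next to 57.5 and 34.8 CPM. Without that library, replicate 2, it was 0.14 (adjusted p 0.561). The call was also lost without each of the day 9 replicates (0.0556 to 0.0931) and with only the groups compared (0.138). With upACSS2 in tau it was 0.13 (adjusted p 0.643). Ddit4 went against the other genes with vector in PBS, where it fell by 0.52 on the log2 scale (adjusted p 0.0412). The fall was -0.27 without day 21 replicate 2, which read 62.3 CPM beside 130 and 108 CPM, with an adjusted p of 0.238, and the call was also lost without any 1 of the day 9 replicates (0.074 to 0.0814). Arrdc2 was not called in any of the 4 comparisons, from -0.14 to 0.13.

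Sgk1 was called in 1 comparison, upACSS2 in tau, at 0.37 (adjusted p 0.0386), from 40.3, 40.5 and 41.9 CPM to 56.1, 46.9 and 55.6 CPM. The call was lost without 5 of the 6 libraries in turn, all but day 21 replicate 2 (adjusted p 0.0279 to 0.117). Plin4 was at 1 to 5 reads per library on day 9 and 3 to 46 on day 21, so its ratios carry wide counting intervals. It did not pass the filter in the day 9 libraries alone and entered the fit of both days through day 21. A rise was thus favoured in advance, and its values are a description without a test. With vector in PBS its pooled level was 8.21 times as high on day 21 (exact 95% interval 3.56 to 23.2, counting error only). Its log2 fold change there was 2.85 ± 0.71, or 1.77 without day 21 replicate 3. With upACSS2 in tau the ratio was 3.96 (1.93 to 8.93) and the log2 fold change 1.95. It was 1.49 without day 21 replicate 3 and 1.63 without day 9 replicate 2. With vector in tau the ratio was 3.24 (1.41 to 8.66), and with upACSS2 in PBS 1.47 (0.535 to 4.42).

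In all, 6 of the 9 genes were called higher and 1 lower with vector in PBS, 5 higher with vector in tau, 5 higher with upACSS2 in PBS and 6 higher with upACSS2 in tau. Both counts of 6 include Plin4, which entered this fit through day 21. Over all genes, the share called higher was 30.6%, 27.7%, 28.5% and 27.2%, and lower 27.1%, 24.9%, 25.8% and 26.4%. The other 20 glucocorticoid targets were called higher for 19, 18, 18 and 19 genes in the same order, and none was called lower. Their median log2 fold change was 2.20, 1.74, 1.47 and 2.00, against 0.05, 0.04, 0.03 and 0.01 over all genes. Some of these 20 did not pass the filter in the day 9 libraries alone and entered this fit through day 21. A call as higher was favoured in advance for those, so the counts and medians of the 20 are a description. Beside the very low Lcn2 and Gjb6, which had 0 to 6 reads per library on day 9, Cebpd (3.45) and the metallothionein gene Mt1 (3.13) had the largest log2 fold changes with vector in PBS. The receptor gene Nr3c1 rose by 0.99, 0.83, 0.98 and 0.89, and Hsp90aa1 fell by 0.65, 0.42, 0.32 and 0.37 on the log2 scale.

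Markers of glia also differed between the days. Oligodendrocyte precursor markers, 3 of 3 called higher in each comparison, summed to 5.67 to 22.6 CPM on day 9 and 314 to 555 CPM on day 21. Oligodendrocyte markers summed to 17.7 to 22.4 CPM and 110.5 to 943 CPM. Astrocyte markers summed to 2120 to 2624 CPM on day 9 and 3257 to 18442 CPM on day 21, with 6, 3, 3 and 6 of 7 called higher. Neuron markers summed to 3539 to 4049 CPM and 3446 to 6447 CPM. Gjb6 and Mt1 are themselves expressed mainly in astrocytes in brain. The part of these shifts in the rise of the 9 genes was not tested.

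**Figure D2:**
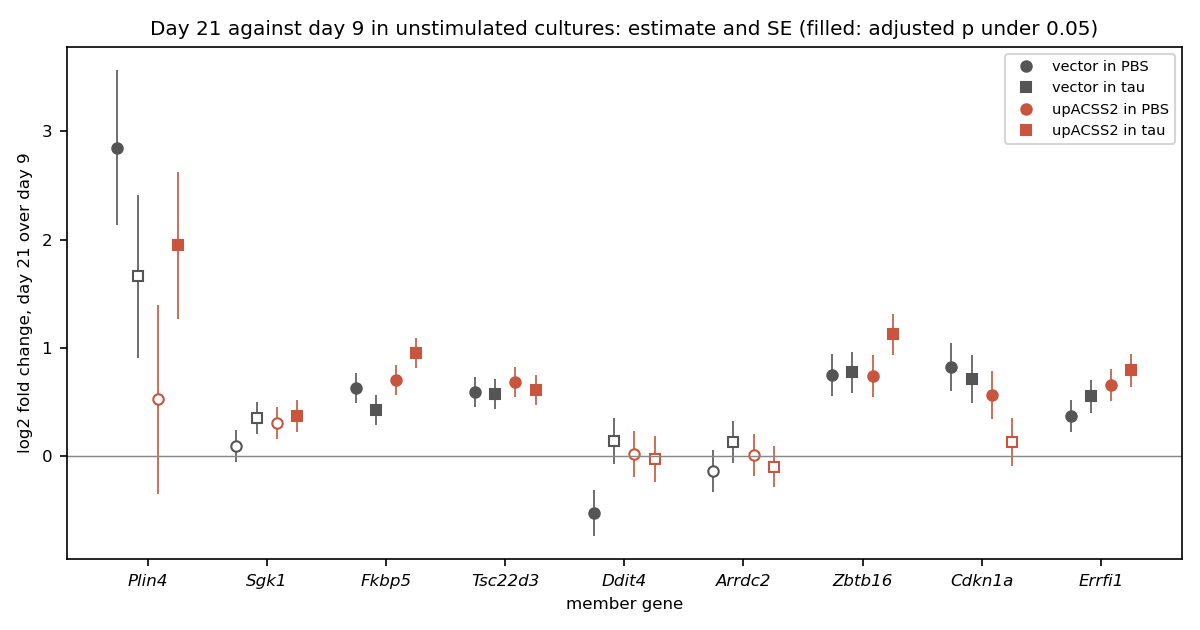
Log2 fold change of each gene from day 9 to day 21 in the 4 unstimulated groups (points, edgeR estimates; bars, SE; filled, adjusted p under 0.05; 3 libraries per group and day). Fkbp5, Tsc22d3, Zbtb16 and Errfi1 are filled in all 4 groups, Arrdc2 in none, and Plin4 has the widest error. Plin4 passed the filter only through day 21, so its points are a description.

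In the culture without virus none of the 9 genes was called between hAD-tau and PBS (0% of all genes). Cdkn1a had an unadjusted p under 0.05, as did 13.9% of all genes. Plin4 entered this fit through its tau libraries and is described without a test. DESeq2 called none of the 9, though it called 326 genes in all. Plin4 read 0.999, 0.969, 1.23 and 0.336 CPM with tau and 0.169, 0.195 and 0.470 CPM in PBS, from 7 to 31 and 1 to 13 reads. The pooled ratio was 2.91 (exact 95% interval 1.77 to 5.01, counting error only) and the log2 difference 1.53 ± 0.56. The filter favoured a higher level in tau in advance, so these Plin4 values are a description. Cdkn1a read 60.3, 57.7, 67.4 and 66.8 CPM with tau and 72.7, 69.8 and 120 CPM in PBS, groups that do not overlap (-0.48 ± 0.20, adjusted p 0.347). PBS replicate 3, with the highest Cdkn1a, stood apart, with summed astrocyte markers of 2011 CPM against 7198 and 8389 CPM, and neuron markers of 4761 CPM against 2422 and 2158 CPM. Its Zbtb16 (63.6 CPM) and Errfi1 (45.7 CPM) were also the highest of the 7 libraries.

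In aged mice, where the Acss2 level itself overlapped between the viruses, the 9 genes were close between them. The log2 differences between upACSS2 and vector ran from -0.08 for Tsc22d3 to 0.27 ± 0.19 (SE) for Plin4, and none was called (0% of all genes, edgeR, 0 at an unadjusted p under 0.05, 0 by DESeq2). Fkbp5 stood at 60 ± 9.52 CPM (SD, n = 12) in the upACSS2 mice and at 60.3 ± 9.49 CPM in the vector mice. Plin4 ran from 1.02 to 4.85 CPM (median 2.28) with upACSS2 and from 0.996 to 2.58 CPM (median 2.08) with vector. Single mice differed far more than the groups did, Fkbp5 ranging from 41 to 74.4 CPM and Sgk1 from 43.5 to 101 CPM.

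In the mice of 10 months Sgk1 came nearest to a call. It ran from 72.2 to 94.5 CPM (median 85.4) in the 6 mice with upACSS2 and read 76.8, 63.2, 54.5, 53.6 and 59.2 CPM with vector, and 4 of the 6 lay above every vector mouse. The means were 83.9 ± 8.68 and 61.5 ± 9.40 CPM (SD), a log2 difference of 0.44 ± 0.10 (unadjusted p 0.000507, adjusted p 0.518, edgeR). Over the alternatives the adjusted p was 0.077 to 0.818. None of the 8 tested genes was called (0% of all genes, DESeq2 0). Sgk1 was the 1 gene of them with an unadjusted p under 0.05, beside 8.83% of all genes. Plin4, not tested there, read 0.636 to 1.94 CPM with upACSS2 and 0.118 to 1.19 CPM with vector, a pooled ratio of 1.86 (exact 95% interval 1.15 to 3.08, counting error only).

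**Figure D3:**
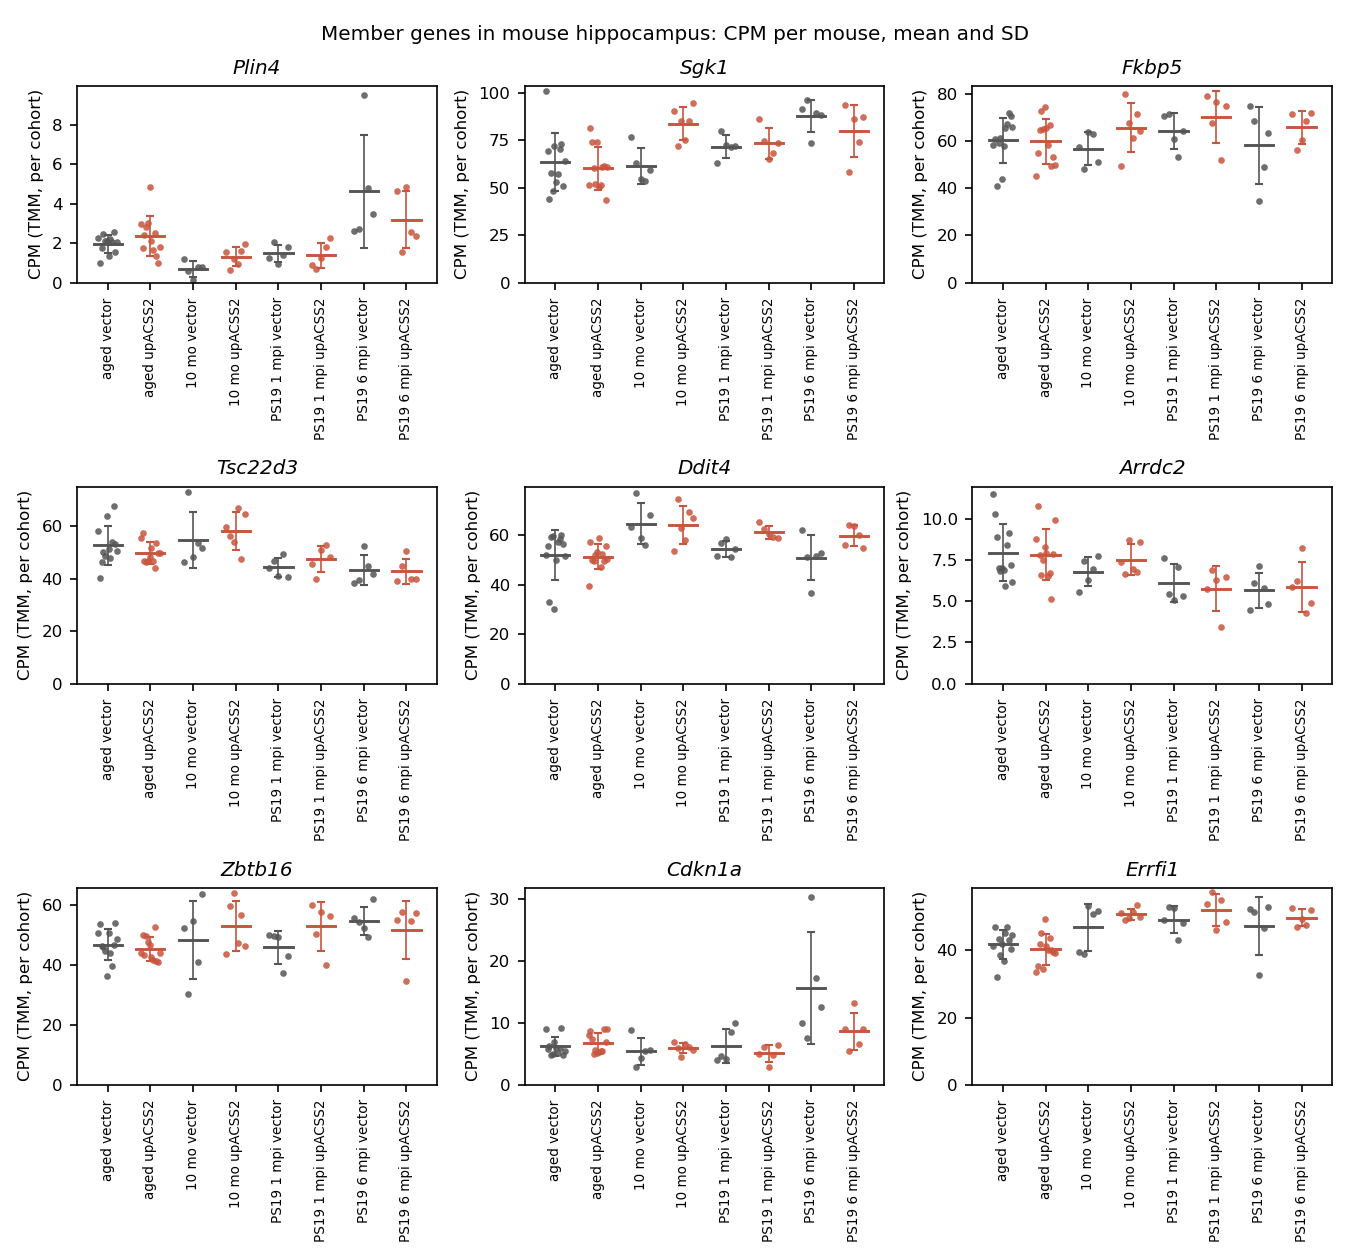
CPM of each of the 9 genes per mouse in the 8 mouse groups (points, mice; horizontal bars, mean; error bars, SD; grey, vector; red, upACSS2; n = 12 per aged group, 6 with upACSS2 and 5 with vector at 10 months, 5 per PS19 group). Plin4 and Cdkn1a are high in PS19 vector mice at 6 months, where 1 mouse reaches 9.49 and 30.4 CPM.

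Plin4 in PS19 vector mice is the pattern that chose it, and its values follow as a description. With vector it read 1.27, 2.04, 0.954, 1.38 and 1.83 CPM at 1 month and 2.60, 2.73, 9.49, 4.77 and 3.50 CPM at 6 months after injection. The groups did not overlap, and the log2 difference was 1.63, or 1.19 without the mouse of 9.49 CPM. In that contrast Cdkn1a differed by 1.31, Sgk1 by 0.29 and Zbtb16 by 0.25, and the other 5 lay between -0.14 and -0.03 on the log2 scale, beside 7.46% of all genes called. Hdgfl2, which overlaps the end of Plin4, differed by 0.04. The mouse of 9.49 CPM, replicate 3, also had the highest Cdkn1a (30.4 CPM), Tsc22d3 (52.4 CPM) and summed astrocyte markers (9810 CPM, against 4795 to 7253 CPM in the other 4) of its group. It had the lowest Fkbp5 (34.6 CPM), Ddit4 (36.7 CPM) and Errfi1 (32.7 CPM). Fkbp5 in the other 4 was 49.1 to 74.8 CPM.

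The mice with upACSS2 did not enter the choice. Plin4 there read 0.905, 0.699, 1.23, 1.82 and 2.26 CPM at 1 month and 4.63, 1.58, 4.86, 2.56 and 2.37 CPM at 6 months. Of the 5 mice at 6 months, 4 lay above all at 1 month. The log2 difference was 1.18 ± 0.40 (SE, unadjusted p 0.00813), which missed the threshold over all genes (adjusted p 0.225, edgeR, and 0.132 to 0.436 over the alternatives). Cdkn1a read 4.98, 6.12, 2.94, 4.82 and 6.38 CPM at 1 month and 8.96, 5.47, 13.2, 6.61 and 9.00 CPM at 6 months, 0.78 ± 0.36 (unadjusted p 0.0418, adjusted p 0.345). None of the 9 genes was called (0.0442% of all genes, DESeq2 0). Tissue labels differ between these times. Choroid plexus markers summed to 132 to 6192 CPM with upACSS2 at 6 months and 88.8 to 1445 CPM at 1 month, and their part in these values was not tested.

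Between the viruses, none of the 8 genes tested was called in PS19 mice at 1 month (0% of all genes), at 6 months (0%) or in the interaction of virus and time (0%). At an unadjusted p under 0.05 there were 0, 2 and 0 of them, and DESeq2 called none. Over all genes 2.92%, 14.1% and 12.3% had such a p, and DESeq2 called 1, 135 and 3. At 6 months Cdkn1a reached 8.64 ± 2.95 CPM (SD, n = 5) in the upACSS2 mice and 15.6 ± 9.04 CPM in the vector mice, a log2 difference of -0.85 (adjusted p 0.28). Ddit4 was 59.9 ± 4.32 and 50.9 ± 9.11 CPM, 0.23 (adjusted p 0.292). Plin4, given without a test because the vector mice that chose it enter, was 3.2 ± 1.46 and 4.62 ± 2.86 CPM. Of the 20 other glucocorticoid targets and the 8 genes of the receptor and its chaperones, none was called in aged mice, in mice of 10 months (18 targets tested), or in PS19 mice in these comparisons and between the times with upACSS2.

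Whether the genes vary together from mouse to mouse was asked within groups. Each mouse's log2 CPM was taken as the deviation from its group mean, which removes virus and time, and Pearson's r was computed for each pair of genes, 36 in the aged mice (n = 24), 28 in the mice of 10 months (n = 11) and 36 in PS19 mice (n = 20). Over these 100 relations the genes did not move as 1 block. In aged mice 23 pairs were positive and 13 negative, with a median r of 0.14. In the mice of 10 months 15 were positive and 13 negative (median 0.01), and in PS19 mice 17 and 19 (median -0.07). Of 28 pairs with a value in all 3 sets, 12 had the same sign throughout, 7 positive and 5 negative, and 0 reached r of 0.5 in all 3.

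Fkbp5, the co-chaperone, was paired most closely with Ddit4 and Errfi1 in aged mice. With Ddit4 r was 0.73 (Spearman's rho 0.52, permutation p 0.00063 and 0.00742, not adjusted), and 0.44 without the 2 mice farthest from the median of Fkbp5. With Errfi1 r was 0.65 (rho 0.63, permutation p 0.00116 and 0.00131), and 0.60 without those 2. These were 2 of its 8 partners at r of at least 0.5, where 10.2% of all genes reached that. A slope fitted for every gene gave 0.75 ± 0.16 for Ddit4 (adjusted p 0.0017, edgeR) and 0.43 ± 0.11 for Errfi1 (adjusted p 0.0074), with 17% of all genes called. The Ddit4 slope depended on the mice used. It was 1.21 in vector mice (0.00247), 0.27 in upACSS2 mice (0.471), 0.28 without the 2 mice (0.249) and 0.59 in replicates 4 to 12 (0.0603). The Errfi1 slope was 0.38 in vector mice (0.134), 0.49 in upACSS2 mice (0.101), 0.46 without the 2 mice (0.0478) and 0.27 in replicates 4 to 12 (0.225).

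In PS19 mice Fkbp5 again had r of 0.62 with Ddit4 (rho 0.27, permutation p 0.0731 and 0.286) and 0.66 with Errfi1 (rho 0.56, permutation p 0.037 and 0.0329), and in all 4 of its 8 partners at r of at least 0.5, against 8.4% of all genes. Both relations rest on few mice, with r of 0.04 and 0.09 without the 2 farthest. Leaving out replicate 3 of both viruses at 6 months, which was chosen after the data were seen, left 1 partner at r of at least 0.5 (3.33% of all genes). That partner was Zbtb16, whose r with Fkbp5 was 0.52 (rho 0.57, permutation p 0.00456 and 0.0107), 0.64 without the 2 farthest and 0.75 without both replicates 3. In aged mice it was 0.40 and in mice of 10 months 0.48, or -0.01 without 2 mice. At 10 months 0 partners of Fkbp5 reached 0.5, against 15.3% of all genes, and no slope of the 9 was called (0.514% of all genes).

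Tsc22d3, another classic target of the receptor, had a negative r with Fkbp5 in each set, and a slope called only in PS19 mice. Their r was -0.18 in aged mice, -0.52 in mice of 10 months and -0.68 in PS19 mice (rho -0.55, permutation p 0.00343 and 0.0244 in PS19, r -0.47 without the 2 farthest). The aged r ranked 10022 from the highest among 15156 genes. With Fkbp5, 15.6% of all genes had r of -0.5 or lower at 10 months and 7.97% in PS19 mice. The PS19 slope of -0.38 ± 0.11 was called at an adjusted p of 0.0497 (edgeR, 4.13% of all genes called). It was lost with RLE size factors (0.0501), in upACSS2 mice alone (1), without the 2 farthest mice (1) and without both replicates 3 (0.59, with 0.521% of all genes called). With Zbtb16, Tsc22d3 had r of -0.36, -0.79 and -0.50 in the same order. With Cdkn1a it was 0.63 in aged mice (permutation p 0.00097), -0.54 at 10 months and 0.36 in PS19, so the sign was not shared. Cdkn1a itself ran against Fkbp5 in aged mice (r -0.48, rho -0.58, permutation p 0.0216 and 0.00533) and in PS19 mice (-0.59, rho -0.51, 0.0265 and 0.0443), with 0.05 at 10 months. The relation lay in some mice more than in others. It was -0.84 in aged upACSS2 mice and -0.12 in aged vector mice, and 0.00 in PS19 upACSS2 mice and -0.82 in PS19 vector mice, and this difference was not tested. In PS19 mice it was -0.21 without the 2 farthest. The slope missed the threshold in both sets (adjusted p 0.101 and 0.0514).

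Plin4 had its own partners in PS19 mice, given here without p because the vector mice that chose it are among the 20. With Cdkn1a r was 0.64 (rho 0.59), 0.63 without the 2 mice farthest from the median of Plin4, and with Tsc22d3 it was 0.62 (rho 0.57), 0.35 without them. With Ddit4 it was -0.60. These 2 of 8 partners at r of at least 0.5 stand beside 11.4% of all genes, and 8.93% of all genes were called on the slope. Without both replicates 3 at 6 months r with Cdkn1a was 0.41 and 0 partners reached 0.5 (6.68% of all genes, and 0.0126% called on the slope). In the 10 upACSS2 mice, which did not enter the choice, r was 0.48 with Cdkn1a, 0.46 with Tsc22d3 and -0.39 with Ddit4, and the slope of Cdkn1a on Plin4 was 0.34 ± 0.20 (adjusted p 0.471, edgeR). In aged mice Plin4 and Cdkn1a had r of -0.19, 0 partners of Plin4 reached 0.5 (0.376% of all genes) and no slope of the 9 was called (0.0066% of all genes).

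**Figure D4:**
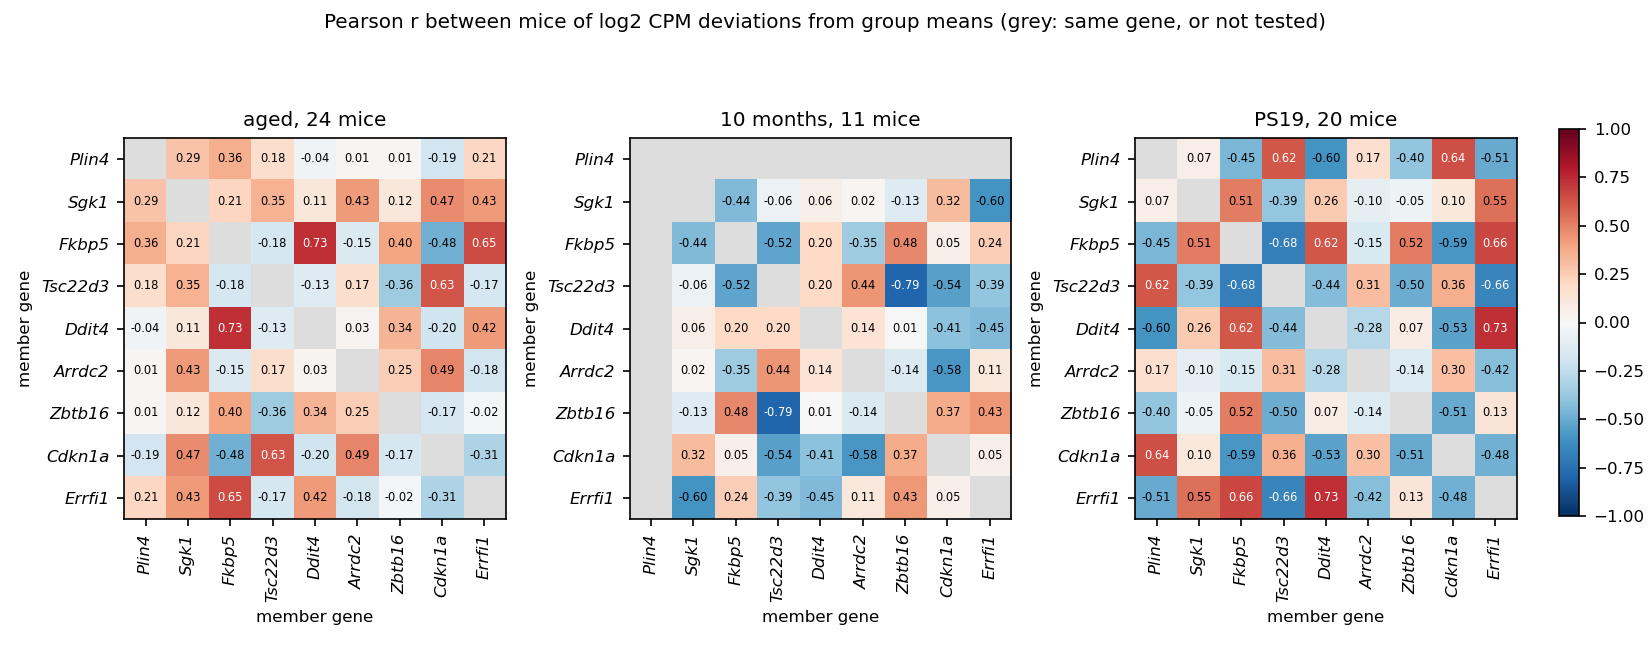
Pearson r between each pair of genes over the mice of each set, as deviations of log2 CPM from group means (colour scale from -1 to 1, with the value in each cell; grey, same gene or not tested). Fkbp5 is positive with Ddit4 and Errfi1 in all 3 sets and negative with Tsc22d3 in all 3, while 12 of 28 pairs keep 1 sign in all 3.

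The same deviations were set against the mean of gene lists for pathways and cell types, 442 relations of the 9 genes over 17 lists and 3 sets of mice. The relations below were singled out after their values were seen. In aged mice Fkbp5 was lower where the mean of 13 clock genes was higher, with r of -0.81 (rho -0.77, permutation p 1e-05, the smallest that 100000 permutations can give, and 3e-05). A mean does not show whether the 13 moved together. It was -0.65 without the 2 mice farthest on the clock list, -0.78 with means taken within the 2 sets of replicates (1 to 3 and 4 to 12) and -0.77 in replicates 4 to 12. The slope was -1.55 ± 0.25 (adjusted p 0.000214, edgeR). Of all genes 25% were called on this list, or 11.1% with a term for the sets (Fkbp5 at 0.000603). Among the other genes, Ddit4 (-1.31, adjusted p 0.00666), Cdkn1a (1.71, 0.00983) and Arrdc2 (1.21, 0.0438) were called. With the term for the sets Cdkn1a (0.074) and Arrdc2 (0.618) were not, Ddit4 was (0.0156), and Zbtb16 was (-0.82, 0.0278). In mice of 10 months Fkbp5 and the clock list had r of 0.46 (permutation p 0.189) and in PS19 mice -0.29 (0.144). Time of day of the collection is not given in the sources used here.

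In PS19 mice Plin4 followed cell type markers. The values over all 20 mice are a description, since the vector mice that chose Plin4 are among them. With 8 oligodendrocyte markers r was 0.83 (rho 0.77), 0.74 without the 2 mice farthest on that list and also without both replicates 3 at 6 months. With 8 neuron markers r was -0.83 (rho -0.85), -0.78 and -0.74 in the same way. Of all genes 5.49% and 14.3% were called on these lists, or 0.452% and 1.58% without both replicates 3. The 10 upACSS2 mice, taken alone after the data were seen, had r of 0.86 with the oligodendrocyte list (rho 0.75, permutation p 0.00693 and 0.0225) and -0.84 with the neuron list (rho -0.83, permutation p 0.00517 and 0.00931). Without the 2 mice farthest on each list these were 0.75 and -0.86. The slopes there were 1.42 ± 0.31 (adjusted p 0.0832, edgeR, 0.366% of all genes called) and -3.97 ± 1.04 (adjusted p 0.0386, 9.92% of all genes called), so the call was made for the neuron list and missed for the oligodendrocyte list. In aged mice the same r were 0.20 and 0.18. With choroid plexus markers r for Plin4 in PS19 mice was -0.07.

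Other genes followed the neuron list in PS19 mice too. Tsc22d3 had r of -0.80 with it (rho -0.77, permutation p 0.00027 and 0.00065, slope -0.76, adjusted p 0.00436) and -0.53 and -0.49 in aged mice and mice of 10 months, each negative. Cdkn1a (-2.33, adjusted p 0.0206) also had a negative slope there, and Fkbp5 (1.01, 0.0468) and Errfi1 (0.67, 0.037) positive ones. Without both replicates 3 none of the 4 passed (0.131 for Tsc22d3, 0.419 for Cdkn1a, 0.381 for Fkbp5 and 0.199 for Errfi1), nor did they in the upACSS2 mice alone (0.113, 0.482, 0.737 and 0.532). In aged mice the 4 slopes had the same signs, with adjusted p 0.0586, 0.153, 0.313 and 0.14 (edgeR, 9.37% of all genes called). With a term for the 2 sets of replicates they were -1.17 (0.0396), -2.68 (0.00467), 1.43 (0.0519) and 1.21 (0.0112), with 10.9% of all genes called. Neuron markers summed to 4128 to 7032 CPM over the PS19 mice and oligodendrocyte markers to 3558 to 7116 CPM, with no marker of either list at 0. By group, the median oligodendrocyte sum was 5477 CPM at 1 month and 4425 CPM at 6 months with vector, and 4349 and 4504 CPM with upACSS2. The median neuron sum was 6197 and 5706 CPM with vector, and 6174 and 5270 CPM with upACSS2. How much of the co-variation follows the makeup of the tissue piece was not tested.

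**Figure D5:**
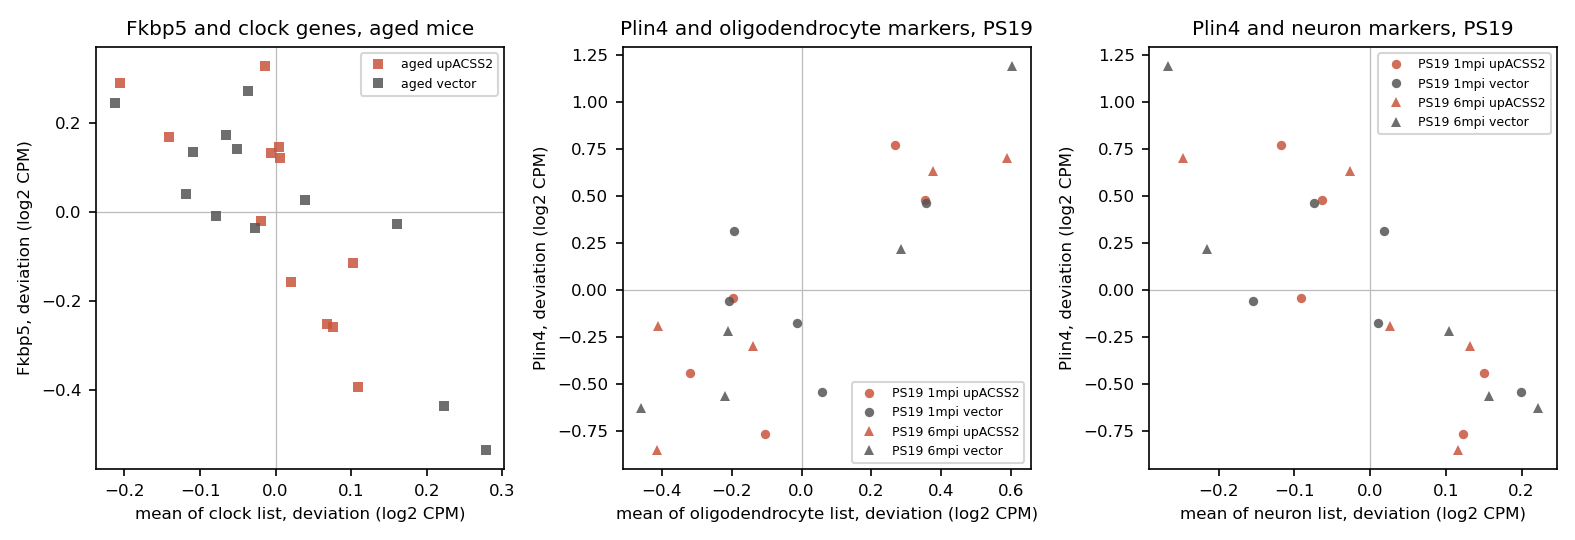
Deviations from group means (log2 CPM), each point a mouse, of Fkbp5 against the mean of 13 clock genes in aged mice (n = 24), and of Plin4 against the means of 8 oligodendrocyte and of 8 neuron markers in PS19 mice (n = 20). Fkbp5 is low where the mean of the clock genes is high (r -0.81). Plin4 is high where the mean of the oligodendrocyte markers is high (r 0.83) and that of the neuron markers low (r -0.83).

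The genes most like Fkbp5 were found as the 5 with the highest smallest r over the 3 sets of mice, outside the 9. They were Pfkl (0.88 in aged mice, 0.92 at 10 months, 0.79 in PS19), Zfp189 (0.79 in each), Lurap1l (0.84, 0.81 and 0.78), Sh3bp5 (0.94, 0.78 and 0.79) and Arf3 (0.78, 0.92 and 0.81). Each of these is above the largest r of Fkbp5 with any of the other 8 genes, 0.73. For Plin4, over aged and PS19 mice only, they were Cd53 (0.59 and 0.65), Rhoa (0.58 and 0.72), Prdx3 (0.58 and 0.63), Rdx (0.57 and 0.69) and Metap2 (0.56 and 0.63). They are the extremes over all genes tested and are given as a description.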

How the data were processed

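RNA was sequenced from 98 mouse libraries. Whole-number read counts by gene symbol, not normalized, were deposited in 6 tables, and per the submitters' processing notes STAR, featureCounts, HTSeq and DESeq2 were used with mm10, without versions or roles. Strand setting and annotation are not given in the sources used here. In the culture without virus, 6.13% to 8.74% of counts sat in an unnamed row, left out of every test and library size. Total counts per library were 6215868 to 32507765 there, 14603730 to 33960722 in neurons of day 9, 17386121 to 31199403 on day 21, 18804544 to 39985460 when stimulated, 11436140 to 28161314 in aged mice, 5075099 to 10839489 at 10 months and 6910945 to 33259982 in PS19 mice.

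Groups came from sample titles. Counts were tested with edgeR 4.0.16 (R 4.3.3, quasi-likelihood F test, TMM, filterByExpr by group, Benjamini-Hochberg over all genes, threshold 0.05, two-sided), a fit per culture day or mouse table, checked on simulated data. CPM was computed with the TMM-scaled library size. Correlations used residual log2 CPM (prior count 2) with 100000 permutations of mice within groups, two-sided and unadjusted, and a slope was fitted for every gene with edgeR. The 9 genes and the lists were chosen with earlier results of these data known. All 9 are accounted for in every table, values per library are given for those called and for Plin4 in PS19 mice, with other values added, and at most 4 genes of a list are named, those called with the largest fold change. Likeness to Plin4 was taken over 2 sets of mice, since Plin4 did not pass the filter at 10 months.

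The labels do not say which libraries are separate cultures, so p-values there measure the spread between libraries, which may be technical. None of 242 pairs within groups agreed within sampling noise (lowest mean chi-square per gene 2.24). Same-numbered replicates deviated together in 3 comparisons: the culture without virus (r 0.22 to 0.394) and, when stimulated, the viruses in tau (0.111 to 0.359) and tau against PBS with vector (0.123 to 0.326). Alternatives were no filter, RLE size factors, DESeq2 1.42.0, other sets of libraries in the fit, a replicate block, each library left out, and subsets of mice. Sequences and loci come from RefSeq and GENCODE tables of GRCm38, the build that mm10 names.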

Additional observations from a re-analysis of the deposited data

Results flagged for a closer look

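In 2 groups 1 library lay far from the rest. Tsc22d3 was 73.2 CPM in replicate 2 of the mice of 10 months with vector, and 46.5 to 53.6 CPM in the other 4. Zbtb16 was 34.55 CPM in replicate 3 of the PS19 mice with upACSS2 at 6 months, and 54.4 to 57.4 CPM in the other 4. The check was run on 63 groups of values of the 9 genes, where chance gives 3.15 such libraries.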

How the results depend on the processing

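No called result changed direction. Of 197 recomputed slopes of the 9 genes on Fkbp5 or Plin4, 24 changed sign, none of them called in the reported fit. Of 134 recomputed counts of partners at r of at least 0.5, 116 stayed within 1.5 times. Of 357 other recomputed values 333 stayed close. Most were counts of called genes among the 9, judged by the same 1.5 times. The rest were the Plin4 log2 fold change in the contrast that chose it, judged by its SD within groups, with no test. Of 321 refitted log2 fold changes, each named change counted once per alternative, 289 kept their side of the threshold and 32 missed it. Of 22 refits of the slopes called in the reported fit 9 kept the call and 13 missed it. The 22 are refits of the slopes of Ddit4 and Errfi1 on Fkbp5 in aged mice, and of Tsc22d3 on Fkbp5 and Cdkn1a on Plin4 in PS19 mice. The slope on Plin4 includes the vector mice that chose Plin4. Of the slopes not called, 7 passed under an alternative: on Fkbp5 in aged mice Cdkn1a in upACSS2 mice (-1.22, 0.0204), Zbtb16 with the 2 sets of replicates (0.35, 0.0452) and Plin4 in replicates 4 to 12 (1.44, 0.04999), and in PS19 vector mice Ddit4 (0.49, 0.0433), Cdkn1a (-1.69, 0.0241), Errfi1 (0.59, 0.0156) and Plin4, given without p since those mice chose it. On day 9, upACSS2 against vector in PBS gave 1 gene, 2 with no filter, with DESeq2 or with only the groups compared, and 0 with all 24 unstimulated libraries. Tau against PBS with upACSS2 gave 1 with no filter, and the interaction 1 with no filter or DESeq2. On day 21 both comparisons of upACSS2 with vector gave 1 with all 24 libraries in place of 0, while the genes called overall went from 2 to 1576 in PBS and from 4 to 528 in tau. In stimulated cultures, upACSS2 against vector in tau gave 2 with DESeq2, tau against PBS with vector 0 with only the groups compared, and tau against PBS with upACSS2 and the interaction 1 each with DESeq2 or a replicate block. Day 21 against day 9 with vector in PBS gave 4 in place of 7, Plin4 being among the 7, with only the groups compared. Partners of Fkbp5 were 1 without the 2 farthest aged mice, 2 in upACSS2 mice of 10 months, and in PS19 mice 1 without the 2 farthest, 2 in upACSS2 mice and 1 without both replicates 3 at 6 months. Partners of Plin4 were 1 in aged vector mice, 2 in aged upACSS2 mice and 2 in replicates 4 to 12, and in PS19 mice 1 without the 2 farthest, 0 in upACSS2 mice and 0 without both replicates 3. The cause was not tested. With 1 library left out in turn, counts ran from 0 to 1 for upACSS2 against vector in PBS and the interaction on day 9, 0 to 1 for stimulated tau against PBS with vector, 5 to 7, 4 to 5, 4 to 5 and 4 to 6 for the 4 comparisons of days, 0 to 1 for partners of Fkbp5 at 10 months, 1 to 4 for those in PS19 mice and 0 to 2 for Plin4 there. Leaving a library out of a group of 3 keeps 2, whose spread is pooled with the other groups. In the other comparisons of 2 groups the replicate numbers do not pair the samples. The replicate block changed no count of the 9 genes called in those 3, with 1 for stimulated tau against PBS with vector, and no other call than those given here. Of the comparisons that gained a call under it, tau against PBS with upACSS2 shares only a number (r -0.115 to 0.156). The interaction holds the groups of both stimulated comparisons whose replicates deviated together, and its own pairing was not measured. For interactions, only the groups compared is the same fit as the one reported. Co-variation with Plin4 at 10 months and in the 5 vector mice of 10 months alone was not run. The alternatives without both replicates 3 at 6 months and without the libraries labelled upACSS2 whose Acss2 lay within the vector range were chosen after seeing the data, as was the relation of Plin4 to marker lists in PS19 upACSS2 mice alone. The setting by Acss2 changed the genes called overall from 0 to 85 between the viruses in PS19 mice at 6 months, and no count of the 9. Depth limits Plin4 most, with 1 to 46 reads per library in the cultures with virus that were not stimulated.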
